A study of Mus musculus with 12 samples.

Results

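The nuclear genes for the subunits of the respiratory chain were examined in the livers of mice lacking Phgdh in hepatocytes. Members were all genes on the array whose current symbol begins with Nduf followed by a, b, c, s or v, with Uqcr, with Cox4 to Cox8 or with Atp5, together with Sdha, Sdhb, Sdhc and Sdhd. This rule found 93 of the 32524 genes and transcripts on the array, measured by 124 of 39429 probes. Of these, 83 encode subunits, with 36 in complex I, 4 in complex II, 8 in complex III, 18 in complex IV and 17 in complex V. A further 8 are Ndufaf genes, which encode complex I assembly factors and were kept apart, and 2 are relatives that were not counted as subunits (Ndufa4l2 and Cox7a2l). Ndufa4 was counted in complex IV, of which its product is a subunit in spite of the name.

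Both groups were male C57BL/6 mice 30 weeks of age with both Phgdh alleles floxed (Phgdh flox/flox), so that the floxed alleles were present in the controls too. Floxed mice (n = 6) carried no Cre, and LKO mice (n = 6; Alb +/Cre;Phgdh flox/flox) carried Cre under the albumin promoter, which acts in hepatocytes. The controls were littermates, and without Cre-bearing mice that kept intact Phgdh an influence of the transgene itself cannot be told apart from that of the deletion. Each mouse gave whole-liver RNA for 1 single-color Agilent array, and the 12 arrays lay on 3 slides of 4 arrays. Slide 1 held Floxed 1 to 4, slide 2 held Floxed 5 and 6 with LKO 1 and 2, and slide 3 held LKO 3 to 6.

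The respiratory chain sits in the inner mitochondrial membrane. Complexes I and II pass electrons from NADH and succinate to ubiquinone, complex III passes them on to cytochrome c and complex IV to oxygen, and complex V, the ATP synthase, uses the proton gradient that complexes I, III and IV build. In the liver this machinery burns fatty acids and supplies ATP for gluconeogenesis and urea synthesis. All subunits of complex II and most of the others are encoded in the nucleus, and a few core subunits are encoded by mitochondrial DNA. None of the 13 mitochondrially encoded subunit genes was matched to a probe here, so the values below describe the nuclear part only.

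All 10 hepatocyte markers examined, such as Alb, Apoa1 and Cps1, were well above background on all 12 arrays, with a summed level between 1702090 and 1802800 in Floxed mice and between 1738860 and 1805540 in LKO mice on the linear scale. Of these 10 markers 4 were higher in LKO mice and the median log2 fold change was -0.043, with none called. Apob (-0.30) and Apoa1 (-0.25) were the lowest, and Serpina1a was 18.77 on all 12 arrays after quantile normalization. That normalization gives every array the same top values, and the sum rests mostly on the brightest markers. Similar sums thus cannot show that the hepatocyte content of the genotypes was equal. The probe for Phgdh, the deleted gene, lay between 4.81 and 5.50 (median 5.17) in Floxed mice and between 4.23 and 5.30 (median 4.57) in LKO mice on the log2 scale of normalized intensity. Its log2 fold change (LKO over Floxed) was -0.48 (SE 0.18), with p = 0.0179 and adjusted p = 0.451 in limma, and p = 0.0346 in the two-sided exact permutation test. The arrays labelled LKO 1 and LKO 2 read 5.07 and 5.30, inside the range of the Floxed mice, and they are the LKO arrays of slide 2. These Phgdh intensities are close to those of the complex IV genes Cox6a2 and Cox8b. Their raw signal was 1.48 and 1.44 times the local background. Such a dim signal limits what the Phgdh probe can show of the deletion. The difference in Phgdh was -0.34 and not called with 75th percentile scaling, and -0.055 and not called within slide 2 or with the slide as a fixed block. Whether this probe lies in the deleted exons was not determined. In bulk RNA, a smaller share of hepatocytes and less RNA per hepatocyte cannot be told apart.

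The subunit genes as a group lay slightly above zero, while single subunits rarely stood out from the spread between mice. Of the 83 subunit genes, 81 were well above background on all 12 arrays. Of these 81, 76 (93.8%) had a higher mean in LKO than in Floxed mice, against 48.8% of all 16915 genes tested. When arrays were scaled to their median instead of quantile-normalized, 6 of 81 were higher, against 20.1% of all genes. The median of all genes was then -0.123, and 72 of 81 subunits lay above it. Subunit genes share the 12 arrays and are not independent of each other. With quantile normalization their median log2 fold change was 0.053, a fold of 1.04, against -0.0035 over all genes. At limma's unadjusted p below 0.05, 1 of 81 subunits was called higher (Cox6b2) and none lower, where 4.92% of all genes were called higher and 3.43% lower, 8.35% in all. No subunit and no other gene passed after Benjamini-Hochberg adjustment in limma, and the smallest adjusted p over all genes was 0.132. In no subunit were the values of the LKO mice clear of those of the Floxed mice, which was the case for 0.296% of all genes.

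**Figure D1:**
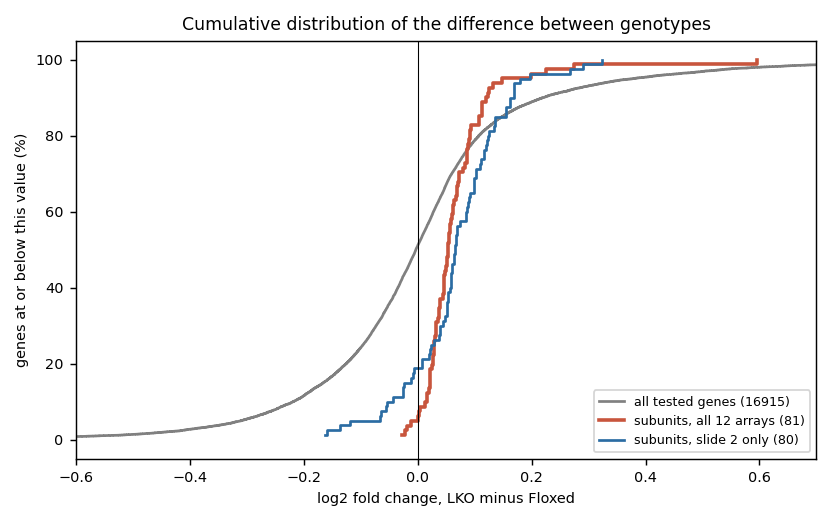
Cumulative share of genes (%) against the log2 fold change (LKO minus Floxed) for all 16915 tested genes (grey), for the 81 subunits over all 12 arrays (red) and for the 80 subunits with values on every array of slide 2 (blue). The red curve is steep and crosses zero near its foot. Under quantile normalization 76 of 81 subunits lie to the right of zero, with a median of 0.053 (6 of 81, and 20.1% of all genes, with scaling to array medians).

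The subunits were also measured more tightly than most genes. The median SD within a genotype was 0.106 on the log2 scale for the subunits and 0.222 for all genes, and the median SE of the difference was 0.076 against 0.124. For 77 of 81 subunits the 95% confidence interval of the log2 fold change lay within 0.5 of zero on both sides. The other 4 were Cox4i2, Cox6a2, Cox6b2 and Cox7a1, all of them isoforms of complex IV subunits. Together with Cox8b, these had a median SD within a genotype of 0.320. Their raw signal was 1.44 (Cox8b) to 21.1 (Cox7a1) times the local background, dimmer than most subunits. The comparison of spread with all genes was not matched for brightness.

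**Figure D2:**
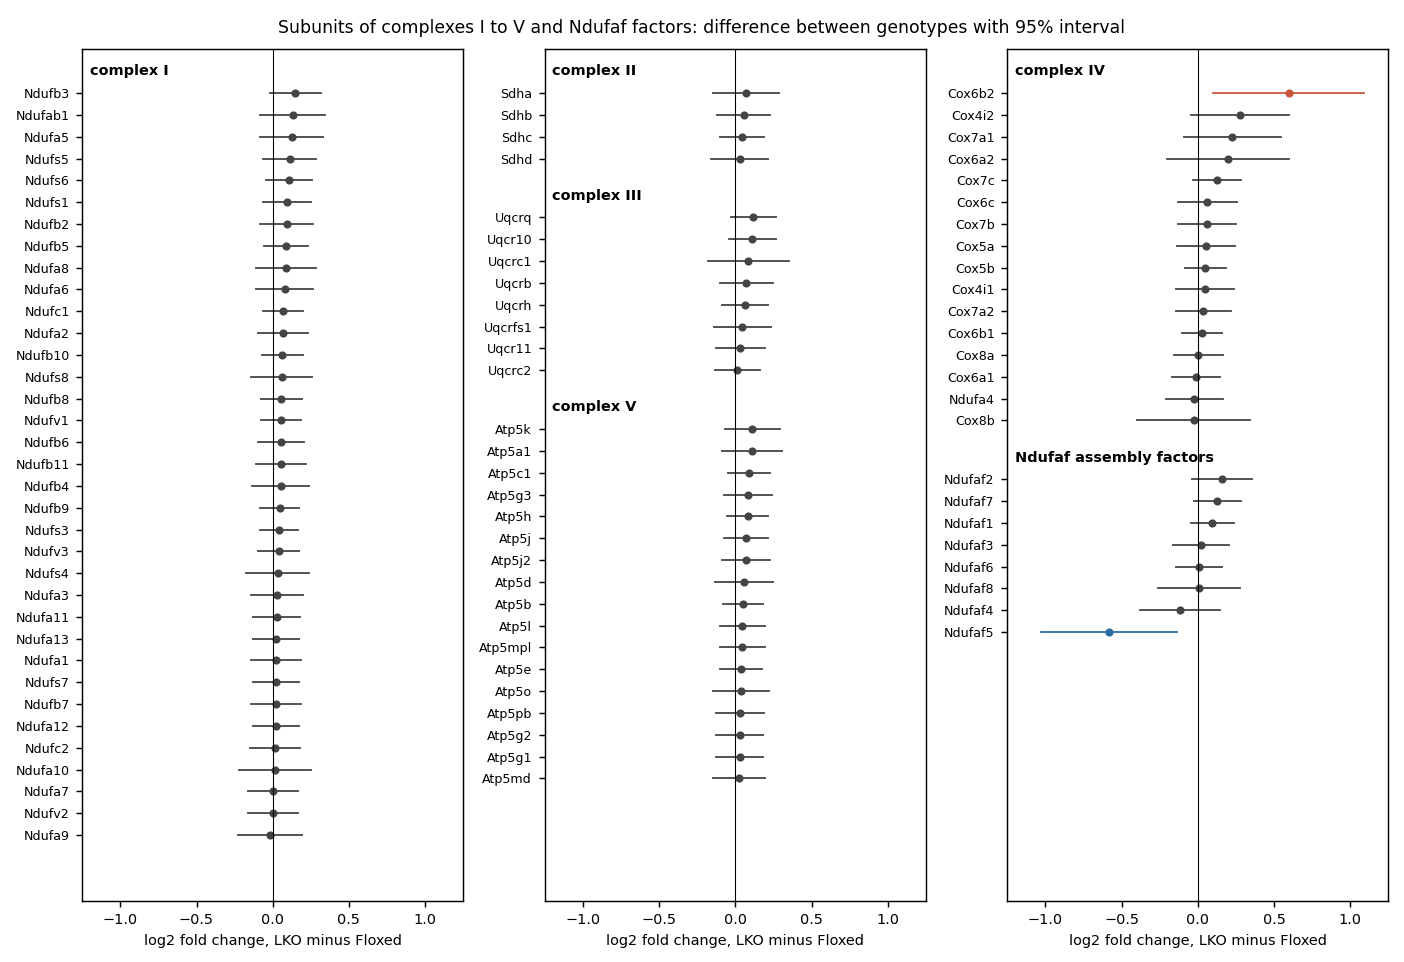
Log2 fold change (LKO minus Floxed, horizontal axis) with the 95% confidence interval of limma for 80 of the 81 tested subunits by complex and the 8 Ndufaf factors. Under quantile normalization most points sit just right of zero with intervals that include it (6 of 81 subunits and 20.1% of all genes lay right of zero with scaling to array medians). Cox6b2 (red, 0.59) was called higher and Ndufaf5 (blue, -0.58) was called lower.

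What the rule did not use is the sequence of the promoters. Promoters were taken from RefSeq (assembly GRCm38.p6) and reach from 250 bases before to 50 bases after each transcription start. NRF1 and the ETS factor GABPA are known activators of many respiratory chain genes. The letters GCGCANGCG, a core of the NRF1 motif, and CCGGAAG, a core of the ETS motif, were searched on both strands with N for any base, and neither core contains the other. Of the 83 subunit genes, 68 had a promoter in the table. At least 1 NRF1 core stood in 20 of the 68 (29.4%), against 9.63% of the protein-coding genes and 7.03% of all 27025 genes in the table. An ETS core stood in 17 of the 68 (25.0%), against 12.9% and 9.93%, and either stood in 31 of the 68 (45.6%), against 20.5% and 15.5%.

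Either core stood in 12 of 32 promoters of complex I, 3 of 3 of complex II, 3 of 5 of complex III, 3 of 13 of complex IV and 10 of 15 of complex V. None of the 4 tissue isoforms of complex IV with a promoter entry held one. With the shorter letters TGCGCA, which shares its last 5 bases with the NRF1 core, and CCGGAA, which the ETS core contains, the shares of the subunits were 26.5% and 38.2%, against 8.79% and 16.7% of all genes. These matches describe the letters and do not show binding. The 250 bases before the start are shown for 1 subunit of each complex, the one with most kinds of motif in this stretch and, among those, the smallest p, and for Cox6b2 as the one called subunit. Capitals mark the NRF1 and ETS cores on either strand.
Ndufs6, chr13:73328483-73328732, minus strand: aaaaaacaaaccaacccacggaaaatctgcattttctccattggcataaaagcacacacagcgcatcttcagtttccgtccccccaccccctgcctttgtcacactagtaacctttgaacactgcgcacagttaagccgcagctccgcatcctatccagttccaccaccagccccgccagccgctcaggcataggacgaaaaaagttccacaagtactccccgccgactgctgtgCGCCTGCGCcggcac
Sdhd, chr9:50603850-50604099, minus strand: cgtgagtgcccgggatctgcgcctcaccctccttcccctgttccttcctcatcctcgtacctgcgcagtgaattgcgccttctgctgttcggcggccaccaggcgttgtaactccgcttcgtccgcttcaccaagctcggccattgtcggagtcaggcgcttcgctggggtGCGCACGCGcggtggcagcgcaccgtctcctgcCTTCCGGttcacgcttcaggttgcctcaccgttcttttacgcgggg
Uqcrh, chr4:116075071-116075320, minus strand: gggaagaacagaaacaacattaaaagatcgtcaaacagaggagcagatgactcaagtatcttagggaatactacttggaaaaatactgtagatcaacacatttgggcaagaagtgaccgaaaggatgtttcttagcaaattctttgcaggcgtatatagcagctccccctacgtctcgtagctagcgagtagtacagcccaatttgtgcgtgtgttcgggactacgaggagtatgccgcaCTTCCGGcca
Cox6a1, chr5:115348959-115349208, minus strand: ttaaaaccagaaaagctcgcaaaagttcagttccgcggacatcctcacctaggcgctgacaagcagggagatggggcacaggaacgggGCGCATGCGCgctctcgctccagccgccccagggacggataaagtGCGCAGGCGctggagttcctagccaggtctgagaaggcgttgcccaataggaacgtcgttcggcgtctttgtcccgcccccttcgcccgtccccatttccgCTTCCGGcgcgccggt
Atp5h, chr11:115419920-115420169, minus strand: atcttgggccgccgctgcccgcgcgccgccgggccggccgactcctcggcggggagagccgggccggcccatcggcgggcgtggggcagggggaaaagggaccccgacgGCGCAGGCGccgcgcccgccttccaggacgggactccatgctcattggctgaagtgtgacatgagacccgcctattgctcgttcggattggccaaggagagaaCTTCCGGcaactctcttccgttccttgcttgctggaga
Cox6b2, chr7:4753095-4753344, minus strand: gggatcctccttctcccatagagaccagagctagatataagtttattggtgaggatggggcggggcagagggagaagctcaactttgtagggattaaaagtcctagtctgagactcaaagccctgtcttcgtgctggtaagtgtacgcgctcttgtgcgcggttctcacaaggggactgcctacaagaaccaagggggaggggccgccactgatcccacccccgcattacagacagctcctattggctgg

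In Ndufs6 the NRF1 core began at position -15 and in Uqcrh the ETS core at position -10, counted back from the start. Sdhd had an NRF1 core at -79 and an ETS core at -46, and Atp5h had them at -141 and -38. Cox6a1, the most densely marked of those shown, held NRF1 cores at -162, -161 and -117, of which the first and second overlap, and an ETS core at -16. The stretch of Cox6b2 held neither.

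Complex I takes electrons from NADH. Of its 36 subunits, 34 were higher and 2 lower in LKO mice, none was called, and the median log2 fold change was 0.053 (-0.098 with scaling to array medians) with a range from -0.018 to 0.15. The 7 core subunits, which carry the flavin and the iron-sulfur clusters or lie next to them, had a median of 0.054, and the 29 accessory subunits a median of 0.052. The largest difference was that of Ndufb3, an accessory subunit of the membrane arm. Ndufb3 lay between 13.71 and 14.01 (median 13.87) in Floxed mice and between 13.88 and 14.11 (median 14.04) in LKO mice. The ranges overlapped, and the difference of 0.15 (SE 0.078) did not pass limma, with p = 0.0806 and adjusted p = 0.690 in limma, and p = 0.0433 in the two-sided exact permutation test over 924 arrangements.

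Ndufs6, an accessory subunit near the electron-carrying arm, lay between 15.86 and 16.09 (median 16.03) in Floxed mice and between 16.03 and 16.26 (median 16.10) in LKO mice. Its difference was 0.11 (SE 0.069, limma adjusted p = 0.792), and the groups overlapped. At the other end, Ndufv2, a core subunit with an iron-sulfur cluster, differed by -4.4e-05 (SE 0.076) with medians of 13.88 in both genotypes. Ndufa9, an accessory subunit, differed by -0.018 (SE 0.097), and its Floxed range of 12.99 to 13.51 rested on Floxed 1, with the next Floxed mouse at 13.15. The value of Ndufs8 came from 5 Floxed and 6 LKO mice, because the spot of 1 Floxed array was marked as an outlier.

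Complex II, succinate dehydrogenase, also belongs to the citric acid cycle. All 4 genes were higher in LKO mice and none was called, with a median log2 fold change of 0.049 (-0.098 with scaling to array medians). Sdha, the flavoprotein, lay between 13.00 and 13.52 (median 13.32) in Floxed mice and between 13.22 and 13.54 (median 13.35) in LKO mice, a difference of 0.069 (SE 0.099). Sdhb, the iron-sulfur subunit, lay between 15.62 and 15.90 (median 15.86) in Floxed mice and between 15.70 and 16.07 (median 15.85) in LKO mice, a difference of 0.055 (SE 0.081). Both are held by membrane anchors. Sdhc, one anchor, lay between 13.11 and 13.29 (median 13.24) in Floxed mice and between 13.18 and 13.35 (median 13.26) in LKO mice, a difference of 0.044 (SE 0.066). Sdhd, the other anchor, lay between 14.49 and 14.85 (median 14.62) in Floxed mice and between 14.46 and 14.90 (median 14.64) in LKO mice, a difference of 0.028 (SE 0.087). The groups overlapped in all 4 genes.

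All 8 subunits of complex III were higher in LKO mice, none was called, and the median was 0.068 (-0.076 with scaling to array medians). This median was the highest of the 5 complexes, though it exceeded the others by less than the SE of a single subunit. Uqcrc1 and Uqcrc2, the large core proteins, differed by 0.086 and 0.013, and Uqcrfs1, the Rieske iron-sulfur protein that takes electrons from ubiquinol, by 0.046. The 5 small subunits had a median of 0.073. Uqcrq, one of them, lay between 16.62 and 16.89 (median 16.68) in Floxed mice and between 16.73 and 16.89 (median 16.86) in LKO mice. Floxed 1 and Floxed 2 lay among the LKO mice. The difference was 0.12 (SE 0.069), with p = 0.105 and adjusted p = 0.742 in limma, and p = 0.0346 in the two-sided exact permutation test. Uqcr10, another small subunit, lay between 14.92 and 15.08 (median 14.996) in Floxed mice and between 14.95 and 15.28 (median 15.13) in LKO mice, a difference of 0.11 (SE 0.072, limma adjusted p = 0.791).

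Complex V held 17 subunits. All 17 were higher in LKO mice and none was called, with a median of 0.052 (-0.100 with scaling to array medians) and a narrow range from 0.024 to 0.11. The 5 subunits of the catalytic F1 head and central stalk (Atp5a1, Atp5b, Atp5c1, Atp5d and Atp5e) had a median of 0.056 and the 4 of the peripheral stalk (Atp5pb, Atp5h, Atp5j and Atp5o) a median of 0.055. The 5 small membrane subunits (Atp5j2, Atp5k, Atp5l, Atp5md and Atp5mpl) had a median of 0.047.

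Atp5k, the subunit e that helps ATP synthase form dimers, lay between 15.18 and 15.48 (median 15.34) in Floxed mice and between 15.35 and 15.69 (median 15.40) in LKO mice, a difference of 0.11 (SE 0.083, limma adjusted p = 0.854) with LKO 5 at the top. Atp5c1, the rotating gamma subunit, lay between 14.67 and 14.90 (median 14.75) in Floxed mice and between 14.77 and 14.93 (median 14.86) in LKO mice, a difference of 0.088 (SE 0.064, limma adjusted p = 0.849). Both pairs of ranges overlapped. The c subunit of the rotor ring is made from 3 genes that differ in the part removed on import into mitochondria. Atp5g1 differed by 0.028 (SE 0.072), Atp5g2 by 0.029 (SE 0.071) and Atp5g3 by 0.086 (SE 0.073), so that no member of this family stood out from its error.

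Complex IV, cytochrome c oxidase, was the most varied of the 5. Of its 16 tested subunits 13 were higher and 3 lower, with a median of 0.051 (-0.093 with scaling to array medians) and a range from -0.028 to 0.59. The widest differences were those of isoforms. Several subunits of complex IV exist as a broadly expressed and a tissue-restricted form, and the restricted forms are known from heart and skeletal muscle (Cox6a2, Cox7a1, Cox8b), lung (Cox4i2) and testis (Cox6b2, Cox7b2, Cox8c). Cox7b2 was well above background on 2 of 12 arrays and Cox8c on 0, so neither was tested. The other 5 restricted forms were tested. Their raw signal was 1.44 (Cox8b) to 21.1 (Cox7a1) times the local background.

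Cox6b2 lay between 6.18 and 6.97 (median 6.62) in Floxed mice and between 6.61 and 8.18 (median 7.01) in LKO mice. LKO 5 was far above the rest at 8.18, the next was LKO 3 at 7.26, and LKO 1, LKO 2 and LKO 4 lay within the Floxed range. The difference was 0.59 (SE 0.23), 1.51-fold with a 95% interval from 1.07 to 2.13, with p = 0.0224 and adjusted p = 0.486 in limma, and p = 0.0260 in the two-sided exact permutation test. Without LKO 5 the difference was 0.39 and still called, and without Floxed 4 it was 0.52 and no longer called. Within slide 2 it was 0.27 and not called. The raw signal of this probe was 2.84 times the local background.

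The other restricted forms were less distinct. Cox4i2 lay between 6.84 and 7.50 (median 7.07) in Floxed mice and between 7.06 and 7.71 (median 7.41) in LKO mice, a difference of 0.27 (SE 0.15, limma adjusted p = 0.714). Cox7a1 lay between 9.79 and 10.59 (median 10.005) in Floxed mice and between 9.995 and 10.65 (median 10.30) in LKO mice, a difference of 0.23 (SE 0.15, limma adjusted p = 0.803). In both genes Floxed 2 was the highest Floxed mouse and lay within the LKO range. Cox6a2 lay between 4.25 and 4.98 (median 4.53) in Floxed mice and between 4.27 and 5.24 (median 4.81) in LKO mice, a difference of 0.20 (SE 0.19, limma adjusted p = 0.915). Cox8b lay between 4.34 and 4.99 (median 4.66) in Floxed mice and between 4.05 and 5.09 (median 4.63) in LKO mice, a difference of -0.028 (SE 0.17, limma adjusted p = 0.990). The groups overlapped in every one of these genes, and LKO 5 was the highest of all 12 mice for Cox6a2, Cox6b2 and Cox7a1.

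The broadly expressed partners stayed closer to zero. Cox4i1 differed by 0.047 (SE 0.089), Cox6a1 by -0.012 (SE 0.074), Cox6b1 by 0.026 (SE 0.061), Cox7a2 by 0.036 (SE 0.083) and Cox8a by 0.0038 (SE 0.073). None of them was called. The 11 subunits of complex IV other than the 5 restricted forms had a median of 0.047 with 9 higher, and the 5 restricted forms a median of 0.23 with 4 higher. The difference between the forms was not tested. Ndufa4 lay between 14.32 and 14.50 (median 14.47) in Floxed mice and between 14.23 and 14.73 (median 14.38) in LKO mice, a difference of -0.023 (SE 0.086). Its relative Ndufa4l2, which is known to replace it under low oxygen, differed by 0.15 (SE 0.18). Cox7a2l, which helps join complexes III and IV, differed by 0.042 (SE 0.066).

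None of the 8 muscle markers examined, among them Ckm, Myh4 and Acta1, was well above background on all 12 arrays. The same held for Adipoq, Plin1, Lep and Ucp1 of the 7 adipocyte and brown fat markers, and the summed level of the other 3 ran from 1215 to 4262 in Floxed and from 710 to 9315 in LKO mice. LKO 5 also had the lowest 75th percentile of the signal before normalization, 239 where the other arrays had 258 to 473. The part of these in the values of the restricted forms was not tested.

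**Figure D3:**
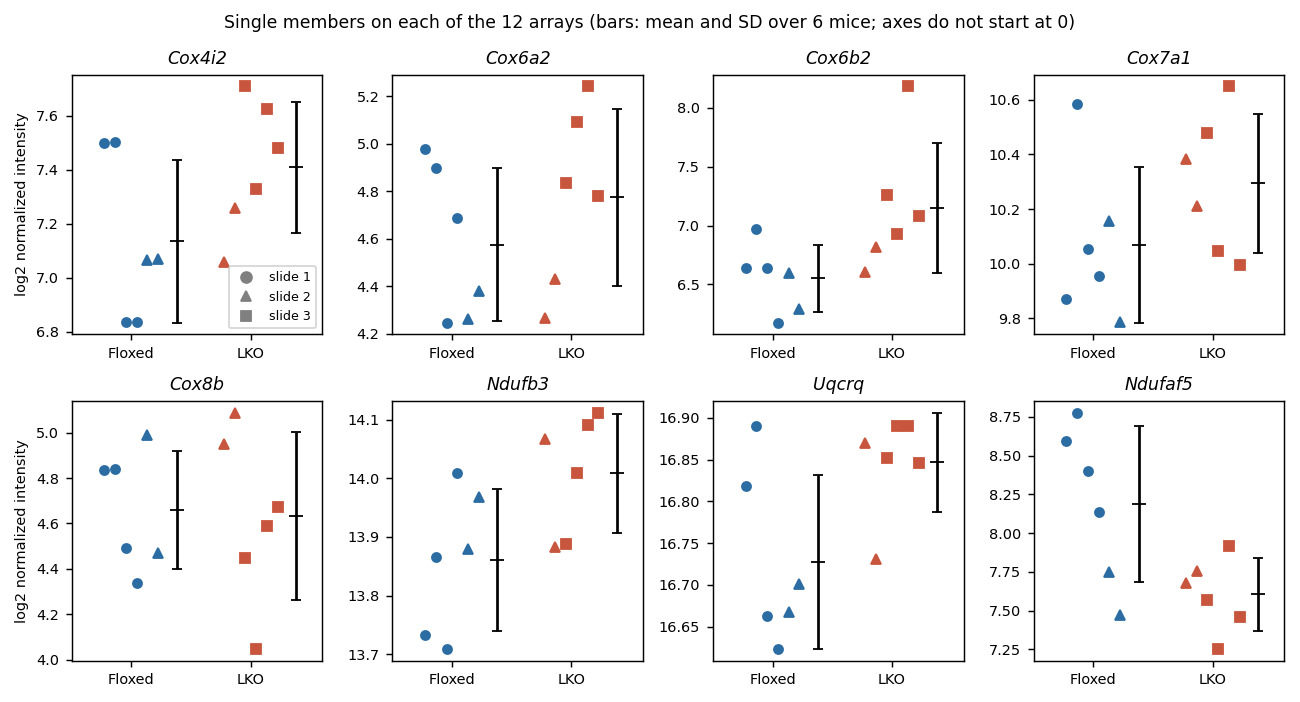
Log2 normalized intensity of 8 single members on each array, with marker shape for the slide and bars for the mean and SD over 6 mice. The groups overlap in every panel. Cox6b2 of LKO 5 (8.18) lies far above the others, and Ndufaf5 is highest in the 4 Floxed mice of slide 1.

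The Ndufaf factors help assemble complex I and are not part of it. Of 8 factors 6 were higher and 2 lower, with a median of 0.013 (-0.124 with scaling to array medians). Of the 8 factors 1 was called (12.5%), against 8.35% of all genes, or 3.43% called lower. This was Ndufaf5, a hydroxylase that acts on the subunit Ndufs7 during assembly. It lay between 7.47 and 8.78 (median 8.27) in Floxed mice and between 7.25 and 7.92 (median 7.62) in LKO mice. The log2 fold change was -0.58 (SE 0.21), an LKO level 0.668 times the Floxed level, with p = 0.0143 and adjusted p = 0.421 in limma, and p = 0.0325 in the two-sided exact permutation test. The 4 Floxed mice of slide 1 read 8.60, 8.78, 8.40 and 8.14 and the Floxed mice of slide 2 read 7.75 and 7.47, inside the LKO range. On slide 2, the slide that held both genotypes, the sign turned, with an uncalled difference of 0.11. The part of the slide in this result was not tested further.

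Ndufaf2, a factor of late assembly, lay between 10.09 and 10.61 (median 10.53) in Floxed mice and between 10.49 and 10.68 (median 10.62) in LKO mice, a difference of 0.16 (SE 0.091). Ndufaf7, a methyltransferase, lay between 10.12 and 10.37 (median 10.21) in Floxed mice and between 10.21 and 10.50 (median 10.35) in LKO mice, a difference of 0.13 (SE 0.070). The groups overlapped in both, and Ndufaf4 differed by -0.12 (SE 0.12). None of these passed limma, with adjusted p from 0.717 to 0.932. Ndufaf4 had 2 usable probes, and the dimmer of them pointed the other way, with a difference of 0.058.

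To see how the subunits varied from mouse to mouse, each gene was set against its own mean over the 12 arrays and these deviations were averaged over a complex. Over all subunits the mean deviation ran from -0.11 to 0.044 (median -0.044) in Floxed mice and from -0.024 to 0.12 (median 0.024) in LKO mice. The groups overlapped, with Floxed 2 (0.044) among the higher LKO mice and LKO 2 (-0.024) among the Floxed mice. Floxed 3 was the lowest, with 8 of 81 subunits above their own mean, and LKO 5 the highest, with 65 of 81. The 2 groups differed by 0.067 with a pooled SD of 0.050 over mice.

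Each complex showed much the same picture. In complex I the mice ran from -0.10 to 0.030 in Floxed and from -0.022 to 0.10 in LKO, in complex III from -0.096 to 0.057 and from -0.041 to 0.11, and in complex V from -0.10 to 0.026 and from -0.032 to 0.11. In complex II the Floxed mice ran from -0.10 to 0.12, with Floxed 4 on top, and enclosed all LKO mice. In complex IV LKO 5 stood at 0.20 and the next LKO mouse at 0.043. Without the 5 restricted forms the highest LKO mouse of complex IV stood at 0.074. The means of different complexes come from the same 12 arrays and are not independent of each other.

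**Figure D4:**
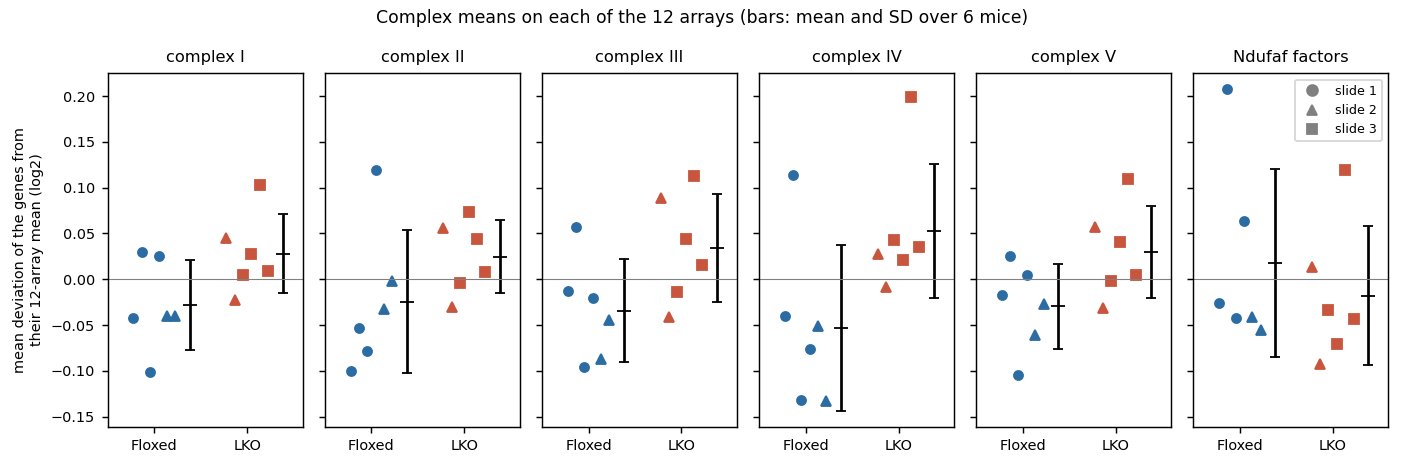
Mean deviation of the genes of each complex, and of the Ndufaf factors, from their 12-array mean (log2, vertical axis) for each of the 12 mice, with marker shape for the slide and bars for mean and SD over 6 mice. Under quantile normalization the LKO means lie above the Floxed means in complexes I to V by 0.049 to 0.11. With scaling to array medians the medians of all 5 complexes turn negative, where the median of all genes is -0.123. The mice overlap in every panel, and LKO 5 stands apart in complex IV at 0.20.

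**Figure D5:**
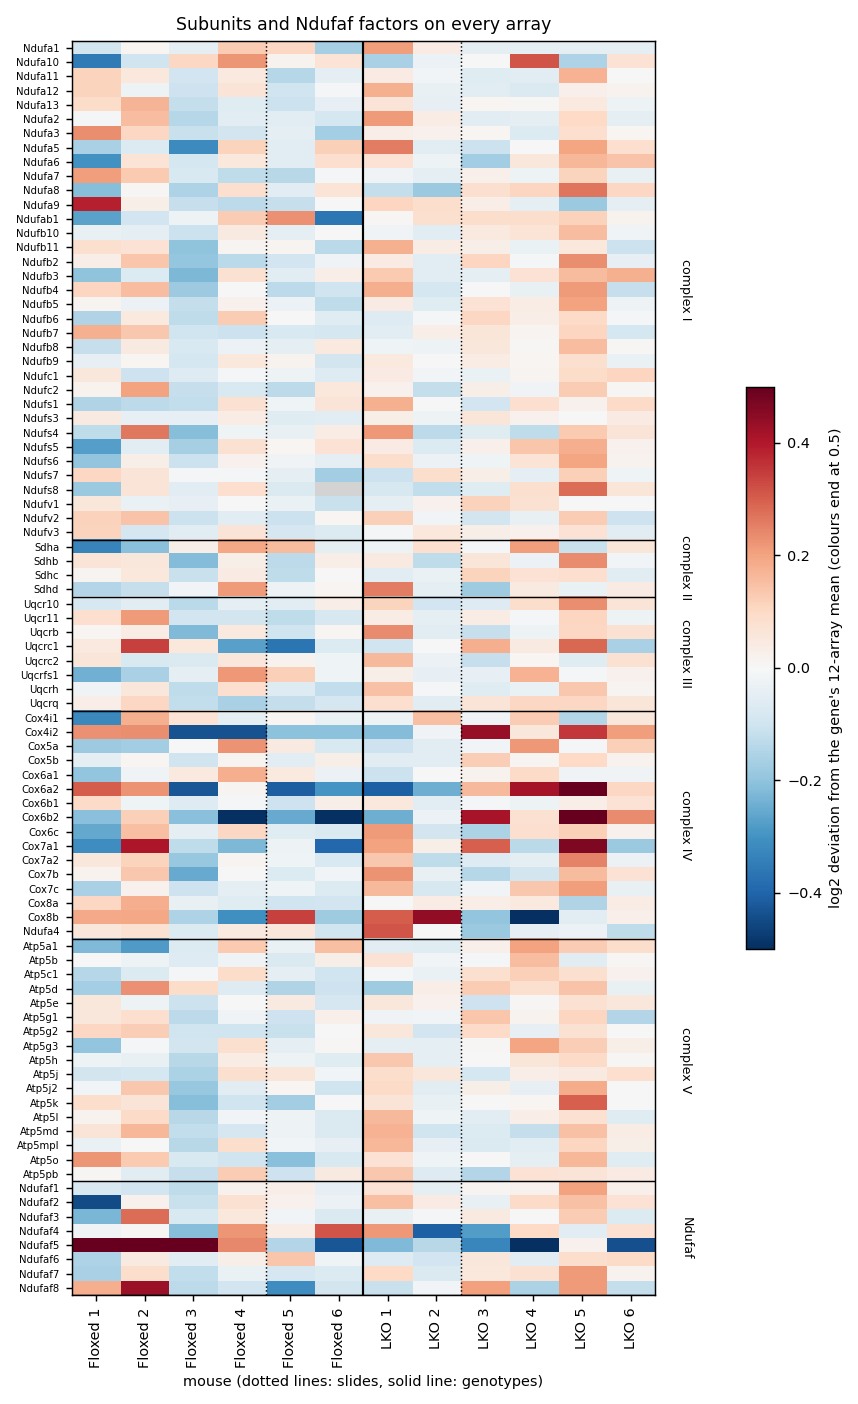
Deviation of 80 of the 81 tested subunits and of the 8 Ndufaf factors (rows) from its own mean over the 12 arrays (columns), in log2 units, with colours that end at 0.5 and grey for a missing value. Floxed 3 is blue and LKO 5 red in most rows, with 8 and 65 of 81 subunits above their own mean, and the strongest colours are those of the restricted forms of complex IV and of Ndufaf5.

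Because slide 2 alone held both genotypes, the difference was also taken within it, between 2 LKO and 2 Floxed mice. There 65 of 81 subunits were higher in LKO, with a median of 0.065, against 54.6% of all genes. Medians within slide 2 were 0.062 for complex I, 0.014 for complex II, 0.11 for complex III, 0.087 for complex IV and 0.059 for complex V, and none of the subunits was called there. Slides 1 and 3 held 1 genotype each. A comparison without the arrays labelled LKO 1 and LKO 2 was chosen after the data were seen. In it 72 of 81 subunits were higher with a median of 0.050, against 46.6% of all genes. There limma called 3 of 81 subunits, Cox6b2 (0.81), Cox6a2 (0.41) and Cox4i2 (0.40), all higher. Over all 16915 genes it called 2172, of which 1197 were higher.

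The sign of these small differences also rested on how arrays were scaled. Scaling each array to its 75th percentile left 75 of 81 subunits higher with a median of 0.041. Scaling to the array median moved the median of all genes by -0.119. Then 6 of 81 subunits were higher, against 20.1% of all genes, and the median of the subunits was -0.095. Measured from the median of all genes under the same scaling, 77, 72 and 72 of 81 subunits lay above it with quantile normalization, 75th percentile scaling and median scaling, by a median of 0.057, 0.028 and 0.028. The values above thus give the place of the subunits among all genes rather than an absolute change of their RNA. The calls over all genes were 832 higher and 581 lower with quantile normalization, 1127 and 316 with 75th percentile scaling and 579 and 1691 with median scaling. Among 23 member genes with several usable probes, all probes were higher in LKO mice in 20 genes and pointed both ways in 3.

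Other genes of the pathway were read from lists. Of all tested genes, 48.8% were higher in LKO mice and 8.35% were called. Of 8 genes for electron carriers around the chain, such as Cyc1, Cycs and Etfdh, 6 were higher and none was called (median 0.056). Of 12 tested genes of ubiquinone synthesis, 8 were higher and 1 was called, close to the share over all genes. Coq8a, an atypical kinase needed for ubiquinone synthesis, lay between 12.45 and 13.10 (median 13.05) in Floxed mice and between 12.90 and 13.64 (median 13.33) in LKO mice. Its difference was 0.36 (SE 0.15), with p = 0.0335 and adjusted p = 0.539 in limma, and p = 0.0628 in the two-sided exact permutation test, and the groups overlapped. Leaving out any 1 of Floxed 1, Floxed 5, LKO 2, LKO 3 and LKO 5 ended this call (0.26 to 0.35), and so did the replicate block, 75th percentile scaling (0.35) and median scaling (0.21). Within slide 2 the difference was 0.54 and not called. In all, 7 of 15 alternatives to the processing ended the call of Coq8a, the Benjamini-Hochberg threshold among them.

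Assembly factors were mixed. Of 10 tested complex I factors other than Ndufaf, 7 were higher and 1 was called, where 8.35% of all genes were called. Acad9, which resembles acyl-CoA dehydrogenases and serves complex I assembly, lay between 10.49 and 10.996 in Floxed mice and between 10.79 and 11.15 (median 10.93) in LKO mice. Its difference was 0.23 (SE 0.094), with p = 0.0298 and adjusted p = 0.525 in limma, and p = 0.0303 in the two-sided exact permutation test. Leaving out any 1 of Floxed 1, Floxed 2, Floxed 3, LKO 4 and LKO 5 ended this call (0.18 to 0.21), as did median scaling (0.089), and within slide 2 the difference was 0.12 and not called. No factor was called for complex II (1 of 4 higher, median -0.058), complex III (2 of 5 higher, median -0.015), complex IV (16 of 23 higher, median 0.026) or ATP synthase (3 of 4 higher, median 0.052). Dmac2l, formerly named Atp5s and linked to ATP synthase, is not covered by the rule. It lay between 5.50 and 5.96 (median 5.63) in Floxed mice and between 5.08 and 5.64 (median 5.38) in LKO mice and was called lower. Its difference was -0.30 (SE 0.11), with p = 0.0152 and adjusted p = 0.426 in limma, and p = 0.0173 in the two-sided exact permutation test, and within slide 2 it was 0.051. It was not called with 75th percentile scaling (-0.20) or normexp background correction (-0.093).

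Of 16 regulators of mitochondrial biogenesis, 7 were higher and 9 lower, with a median of -0.037. Pprc1, a coactivator related to Ppargc1a, was the 1 called, where 8.35% of all genes were called. It lay between 6.22 and 6.85 (median 6.66) in Floxed mice and between 5.85 and 6.65 (median 6.28) in LKO mice, a difference of -0.39 (SE 0.14), with p = 0.0183 and adjusted p = 0.451 in limma, and p = 0.0368 in the two-sided exact permutation test. It was not called with the replicate block, nor without the arrays labelled LKO 1 and LKO 2 (-0.22). In all, 3 of 15 alternatives to the processing ended the call of Pprc1, the Benjamini-Hochberg threshold among them. Within slide 2 the difference was -0.55. The raw signal of the Pprc1 probe was 2.36 times the local background. Ppargc1a itself differed by -0.17 (SE 0.20) and Nrf1 by -0.16 (SE 0.092). The DNA-binding factors Gabpa and Esrra differed by 0.074 (SE 0.11) and 0.14 (SE 0.095), and Tfam, which packs mitochondrial DNA, by 0.085 (SE 0.12). None of these 5 was called. Of 15 genes that mark mitochondrial mass, such as Vdac1, Tomm20 and Cs, 10 were higher (median 0.049). Here too 1 was called, against the same 8.35% of all genes. Phb, an inner membrane scaffold protein, was called and lay between 13.05 and 13.37 (median 13.13) in Floxed mice and between 13.10 and 13.54 (median 13.39) in LKO mice. Its difference was 0.20 (SE 0.087), with p = 0.0402 and adjusted p = 0.569 in limma, and p = 0.0346 in the two-sided exact permutation test. Leaving out any 1 array other than Floxed 2, Floxed 6 or LKO 2 ended this call (0.17 to 0.20), as did 75th percentile scaling (0.19), median scaling (0.050), normexp background correction (0.16) and the replicate block, and within slide 2 the difference was 0.054. In all, 9 of 15 alternatives to the processing ended the call of Phb, the Benjamini-Hochberg threshold among them.

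Markers of other liver cells were read the same way, beside 48.8% of all genes higher and 8.35% called. All 6 tested macrophage markers were lower in LKO mice (median -0.11, none called), with a summed level from 13091 to 31871 in Floxed and from 11259 to 25210 in LKO mice. Of 5 blood cell markers 4 were lower (median -0.26, none called). Of 10 endothelial and stellate markers 7 were higher (median 0.060) and Pecam1, an endothelial adhesion molecule, was called higher (0.70, limma adjusted p = 0.273), with a difference of 0.042 within slide 2. Of 4 tested lymphocyte markers 2 were higher, of 2 cholangiocyte markers 2, and of 4 pancreas acinar markers 3, with Cel called higher (0.54, limma adjusted p = 0.273), with a difference of 0.27 within slide 2. The part of these cells in the subunit values was not tested.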

How the data were processed

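Liver RNA of 6 Floxed and 6 LKO mice was labeled with cyanine 3 and hybridized to 12 single-color Agilent arrays. The kit named for RNA extraction differs between the study's methods and the labels. The authors deposited, for each array, the scanner software's spot intensity after background correction, not normalized between arrays (Feature Extraction, version 10.7.1.1 in the file headers and 9.5.1.1 in the submitters' processing notes), and a table of quantile-normalized intensity values. Here the deposited intensity was put on the log2 scale and quantile normalization was applied across arrays. Control spots (1377 per array) were left out, spots marked as outliers (0.298%) were treated as missing and spots of a probe were averaged. No detection p-value was at hand, so the scanner software's mark for a signal well above background was required on every array (20404 probes), where a probe on several spots needed at least 0.5 of them. Genes were named through RefSeq accessions (assembly GRCm38.p6; 94.3% of 28389 probes matched), and the brightest probe stood for a gene.

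Genotypes were compared with limma (version 3.58.1, R 4.3.3) without covariates, with a gene called at an unadjusted p below 0.05 as in the study's array methods and Benjamini-Hochberg values given beside it. For single genes all 924 ways of assigning the mice to genotypes were also enumerated (exact permutation test on both sides). The fit was tested on simulated data. Levels of different probes are not comparable, and the number of arrays limits the precision. p-values measure the spread between these mice.

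The members and the gene lists were chosen with earlier results of these data known. Genes named are the called members, the 2 with the smallest p in each direction in each complex and among the Ndufaf factors, the Sdh genes, isoform families, called genes of the pathway lists, a few regulators and Phgdh. The single values of 1 subunit gene are not reported here, although it stays in all counts. Other genes are named as examples of a list or a structural part. Alternatives covered scaling, background correction, the authors' table, the filter, outlier spots, probe averaging, the threshold, the slide, the methods' t-test, a block for the replicate number and leaving out each array.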

Additional observations from a re-analysis of the deposited data

Results flagged for a closer look

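Among 100 groups of 6 mice examined (named genes and complex means), 8 held a mouse whose gap to the nearest other mouse exceeded Dixon's 95% limit, where chance gives about 5. Within subunits and assembly factors, Floxed 1 was the highest Floxed mouse for Ndufa9 (13.5) and the lowest for Ndufaf2 (10.1), LKO 2 was the lowest LKO mouse for Uqcrq (16.7), and LKO 5 was the highest for Atp5k (15.7) and the lowest for Cox8a (16.6). The mean deviation of complex IV in LKO 5 was 0.198, with the next LKO mouse at 0.043. Among the pathway genes, Floxed 5 was the lowest Floxed mouse for Coq8a (12.5) and Floxed 1 the lowest for Tfam (9.44). Of these 8 values, 3 came from Floxed 1 and 3 from LKO 5.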

How the results depend on the processing

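The median of each complex stayed above zero under every alternative but scaling to the array median, which called 2270 genes (579 higher and 1691 lower, against 832 and 581 with quantile normalization and 1127 and 316 with 75th percentile scaling), left 6 subunits higher with a median of -0.095 and gave medians of -0.098 for complex I, -0.098 for II, -0.076 for III, -0.093 for IV, -0.100 for V and -0.124 for the Ndufaf factors. That scaling moved the median of all genes by -0.119 and left 20.1% of them higher. The number of called subunits was 2 with normexp background correction (Cox6b2 and Ndufb3) and with the slide as a random block (the same genes), 5 with the methods' t-test (Atp5h, Cox6b2, Cox7c, Ndufb3 and Uqcrq, all higher, of which Atp5h and Cox7c are named after their values were seen), 3 without the arrays labelled LKO 1 and LKO 2, and 0 after Benjamini-Hochberg adjustment, with the slide as a fixed block and within slide 2. The total over all genes was 1413 in the main fit. It came to 1421 with normexp background correction, 1925 with the slide as a random block and 1236 with the methods' t-test. When dim probes were kept it came to 2791, and to 0 after adjustment, 317 with the slide as a fixed block and 512 within slide 2. Without the arrays labelled LKO 1 and LKO 2, a setting chosen after the data were seen, it came to 2172. With the slide as a fixed block and within slide 2 the difference became 0.108 for Ndufaf5 and 0.051 for Dmac2l, and the cause was not tested.

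Leaving out 1 array at a time gave 1 to 4 called subunits (4 without Floxed 2, 2 without Floxed 1 or LKO 1) and 71 to 77 subunits higher, with the median of the Ndufaf factors between -0.0069 and 0.081. Over all genes these fits called 1103 to 1837. Without Floxed 4, Ndufb3 was called and Cox6b2 was not. Same-numbered mice of the genotypes correlated between -0.235 and 0.317 in their deviations, above 0.1 in 3 of 6 pairs and best with their own number in 2 of 6. The controls were littermates and mice of the same number carry adjacent animal numbers in their labels, but no label says that a number marks a litter, so whether the numbers pair the mice was not settled. The replicate block called 1428 genes and 1 subunit (Cox6b2), and of the named calls it ended those of Coq8a (0.36), Phb (0.20) and Pprc1 (-0.39), whose differences it left as they were. Among 43 named genes, median scaling turned the sign of 21, none of which had been called, and the slide as a fixed block turned that of 11, of which 2 had been called. Depth in the sense of signal over background limits the restricted forms of complex IV, from 1.44 times the background for Cox8b. The Phgdh probe lay at a similarly low intensity.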
